A study of Mus musculus with 13 samples.

Results

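R-loop regions that were called as a DRIP-seq peak in a single library of N2a cells are described here. N2a is a mouse neuroblastoma line. Cells were transfected with a scramble siRNA (siScramble), with siRNA against the RNA helicase DDX1 (siDDX1) or with siRNA against EXOSC3, a structural subunit of the RNA exosome (siEXOSC3), and 3 libraries were made from each group. All groups shared the cell line, the transfection and the cutting of genomic DNA by 5 restriction enzymes before pulldown. Each group also had 1 library from DNA treated with RNase H, an enzyme that degrades the RNA strand of a hybrid. The methods give 3 seeded plates per condition of 1 line. The spread between libraries therefore joins that between cultures with that of digestion, pulldown, library preparation and sequencing, which cannot be told apart here.

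Peaks of the 9 undigested libraries were merged where they overlapped or touched, which gave 69497 regions. Of these, 31472 regions (45.3%) were overlapped by a peak of exactly 1 library, and each of them held exactly that 1 peak. They are called single-library regions below, and the peaks of a library that lie in a region called in 2 or more libraries are called its shared peaks. Since the regions were chosen by the peak calls themselves, width, fold enrichment and q-value are given as descriptions without a test. Position, base composition, restriction fragments and RNase H peaks were not used directly by the choice and were compared between single-library and shared peaks within each library. A narrow peak has less chance to overlap another, so the choice favours narrow peaks. No comparison was matched for width, and differences that go with width are part of those given below.

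Groups were taken from the sample titles. The peak names inside the lists gave another treatment than the title in 12 of 12 lists. Under a siScramble title the peaks were named siDDX1, under a siDDX1 title siEXOSC3, and under a siEXOSC3 title siScramble. Group names below therefore stand for the titles, and no direction between treatments is drawn from them. Tests within libraries and tests across the 3 groups keep their value under such an exchange of names.

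An R-loop is a hybrid of RNA with 1 strand of DNA that leaves the other strand unpaired, and it forms mostly behind a transcribing polymerase. R-loops are known to gather near CpG-rich transcription starts and at gene ends, where the displaced strand is often rich in G. The S9.6 antibody used for the pulldown recognises the hybrid, and a peak caller reports where sequenced fragments pile up over the local background. A peak called in 1 library alone can therefore lie anywhere from just above the caller's threshold in 1 list to far above it. Promoters of neuroblastoma genes carried peaks in these libraries: Phox2a, Hand2, Gata2, Tubb3 and Elavl3 had a peak within 1 kb of a start in 9 of 9 libraries, as 5 of 12 neuroblastoma and neuronal markers. None of 5 hepatocyte markers and none of 5 muscle markers had one in any library. Of 5 lymphoid and myeloid markers only Cd68 had one, and among the neuronal markers Stmn2 had none.

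Windows are given first for some of the strongest single-library regions. These are not typical, since the median fold of all single-library regions was 4.53. The following windows from build mm9, plus strand, are centred on the summit of the highest-fold region of 5 libraries, tied in siScramble replicate 3. Capitals mark the 31 bases around the summit, a stretch found once in the mm9 chromosomes in each of these windows. Copies in sequence that is not placed on these chromosomes were not counted, here or below. Windows that overlap an exon, or whose central stretch occurs more than once, are not printed.
siScramble replicate 2, Rab27a, chr9:72892876-72892976: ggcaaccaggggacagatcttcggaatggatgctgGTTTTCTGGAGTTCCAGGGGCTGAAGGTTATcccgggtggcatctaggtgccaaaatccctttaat
siScramble replicate 3, intergenic, chr12:73815369-73815469: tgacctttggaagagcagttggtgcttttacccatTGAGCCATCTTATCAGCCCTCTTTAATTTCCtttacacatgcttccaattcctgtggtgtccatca
siDDX1 replicate 2, Jph3, chr8:124295078-124295178: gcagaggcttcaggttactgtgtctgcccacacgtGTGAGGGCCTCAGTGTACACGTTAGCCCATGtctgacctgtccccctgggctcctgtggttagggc
siEXOSC3 replicate 2, Pcdh17, chr14:84926341-84926441: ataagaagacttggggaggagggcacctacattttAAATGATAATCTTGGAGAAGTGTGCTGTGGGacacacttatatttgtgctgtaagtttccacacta
siEXOSC3 replicate 3, Gm16724, chr17:71313090-71313190: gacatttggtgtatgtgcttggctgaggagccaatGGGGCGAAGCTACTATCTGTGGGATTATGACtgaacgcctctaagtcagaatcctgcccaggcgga

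The region in Rab27a, which encodes a GTPase of vesicle transport, spanned chr9:72892767-72893150 and lay 287 bases from the nearest transcription start. Its fold enrichment was 9.91, from 15 fragments stacked at the summit against a local background of 0.615 fragments. The intergenic region of siScramble replicate 3, chr12:73814305-73815626, had a fold of 9.64, tied with another region of this library. From the intergenic region, the next annotated start, that of Ppm1a, was 47.2 kb away. The region in an intron of Jph3, a junctophilin gene, reached a fold of 9.39. All 3 lay close to a peak of another library, with gaps of 194, 144 and 233 bases in the order named.

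The top regions of siEXOSC3 replicates 2 and 3 stood apart from these. The region in Pcdh17, a protocadherin gene, spanned chr14:84926226-84926987 with a fold of 21.4 and 34 fragments at the summit. It overlapped RNase H peaks in 2 of 3 lists, and no peak of another undigested library lay on its restriction fragment. Both of its ends lay on restriction sites, an SspI site on the left and a BsrGI site on the right, shown here as 30 bases each with the site in capitals.
Left end, SspI, chr14:84926213-84926242: atcactgtacAATATTaagtctgagaagca
Right end, BsrGI, chr14:84926975-84927004: tcaaatgaTGTACAagtgcttctttcgatg
The second region of this library, in an intron of Lingo2 (fold 16.5, 26 fragments), also overlapped RNase H peaks in 2 of 3 lists and ended on an SspI and a HindIII site. The highest fold of all single-library regions, 35.2 with 65 fragments at the summit, belonged to siEXOSC3 replicate 3 at chr17:71312991-71313240, in an intron of the noncoding gene Gm16724. This region overlapped RNase H peaks in 3 of 3 lists. Its printed window had 8 other places in the genome that matched it in at least 80% of bases without gaps, whereas the other 4 windows had 0. The second region of the same library lay on chromosome X (fold 21.3, 45 fragments) around a 31-base stretch with 1377 copies in the genome. In siScramble replicate 1 a region in an intron of Ccdc46 (fold 9.38) was likewise centred on a stretch with 308 copies. It was tied for the highest fold of this library with another region, whose central stretch had 1 copy.

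The number of single-library regions differed widely between libraries of 1 group. The siScramble libraries held 822, 4380 and 6531 of them in replicates 1, 2 and 3, the siDDX1 libraries 5629, 1334 and 2126, and the siEXOSC3 libraries 1585, 2749 and 6316. The lowest and the highest value both belonged to siScramble. As a share of all peaks of the library, they ranged from 3.44% in siScramble replicate 1 (95% Wilson interval 3.22 to 3.68%, of 23882 peaks) to 15.5% in siScramble replicate 3 (15.1 to 15.8%, of 42170 peaks). These intervals cover counting error only. Group means (± SD, n = 3) were 3911 ± 2883 regions for siScramble, 3029.7 ± 2286 for siDDX1 and 3550 ± 2465 for siEXOSC3. Groups overlapped throughout. An exact permutation test of F over the 280 ways to form 3 groups of 3 gave p = 0.918 for the number and p = 0.946 for the share of peaks (both 0.946 after Benjamini-Hochberg adjustment over the 2 tests). The smallest p this design allows is 0.00357.

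**Figure D1:**
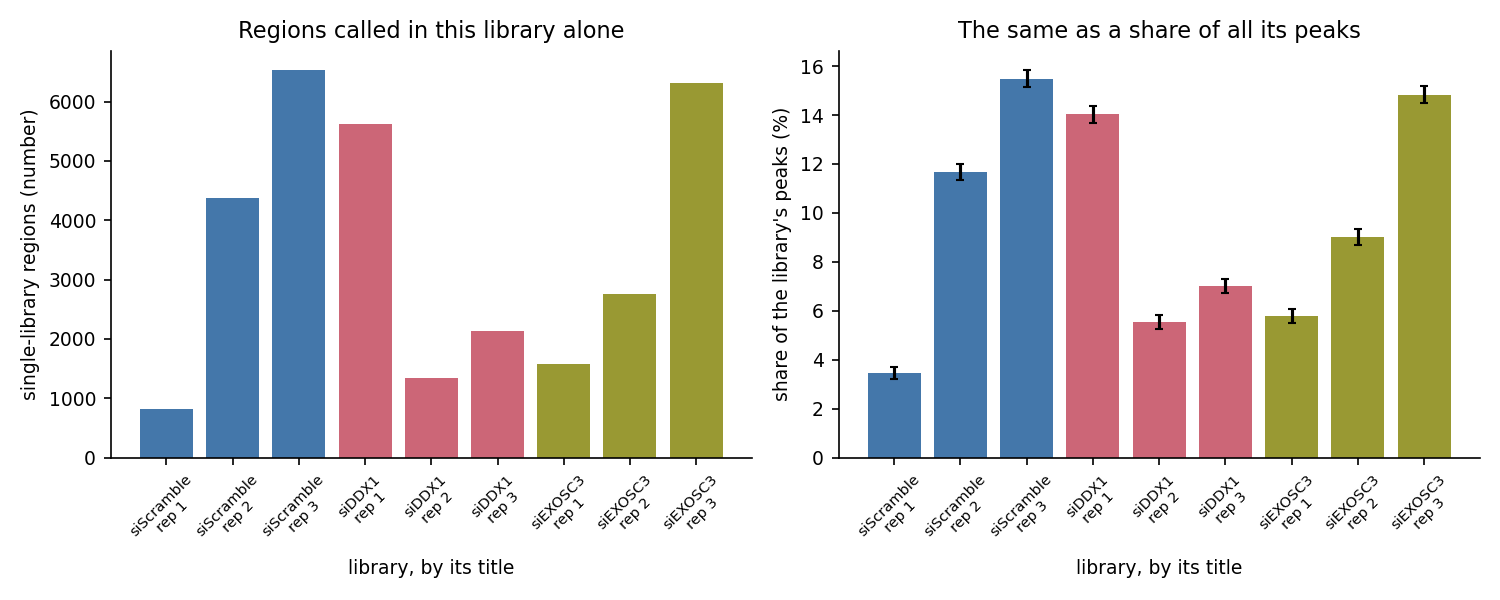
Number of single-library regions (left) and their share of all peaks of the library (right, bars with 95% Wilson intervals) in each of the 9 libraries, coloured by the group in the title. The 3 libraries of siScramble range from 822 to 6531 regions, wider than the distance between group means.

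Read depth is not known from peak lists. As a stand-in for depth, the lowest local background in each list was taken, in fragments, which follows from the fold and the p-value of each peak. How closely it follows the number of reads was not tested. This background was 1.29 fragments in siDDX1 replicate 1 and between 0.544 and 0.706 in the other 8 libraries. Across the 9 libraries the number of single-library regions had a Pearson r of 0.298 with it (exact permutation p = 0.609) and a Spearman rho of 0.0333 (p = 0.948). The share of peaks gave r = 0.301 (exact permutation p = 0.612) and the same rho. Adjusted over these 2 relations, p was 0.612 for r in both and 0.948 for rho in both. Without siDDX1 replicates 1 and 3, which lay farthest from the median, r was -0.451 (exact permutation p = 0.323, n = 7) for the number and -0.479 (exact permutation p = 0.292, n = 7) for the share. By contrast, libraries with more peaks had more single-library regions, from 822 of 23882 peaks (siScramble replicate 1) to 5629 of 40136 (siDDX1 replicate 1). Only siScramble replicate 3 (6531 of 42170) and siEXOSC3 replicate 3 (6316 of 42571) broke this order. The share of peaks followed the same order. This relation to the number of peaks was not tested.

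Single-library regions were narrow and weak. Their median width was 327 bases (quartiles 279 and 414, highest 2711), and their median fold was 4.53 (quartiles 4.16 and 5.18, lowest 1.91, highest 35.2). Within libraries, the median width of single-library peaks ranged from 302 to 349 bases against 520 to 672 bases for shared peaks, and the median fold from 4.30 to 5.06 against 5.53 to 6.61. Neither pair of ranges overlapped. Only 179 regions (0.569%) were wider than 1000 bases, against 29.5% of shared peaks, and 23 had a fold of 10 or more. A median of 7 fragments was stacked at the summit (10th percentile 6, 90th percentile 11). By library this median was 7 or 8, and 10 in siDDX1 replicate 1, the library with the highest background. Together the regions covered 11.7 of 76.6 Mb in all merged regions, or 15.3%.

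The change at the edge of the choice was gradual. Just outside it, the 10680 regions called in exactly 2 libraries had peaks with a median width of 365 bases, a median fold of 4.82 and 8 fragments at the summit. The 7460 regions called in 9 of 9 libraries had peaks with a median width of 971 bases, a fold of 7.12 and 12 fragments. The median −log10 q was 3.90 for 1 library, 4.26 for 2 and 8.72 for 9. A q-value beyond 5 on this scale was reached by 7956 single-library regions (25.3%) and by 66.0% of shared peaks.

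**Figure D2:**
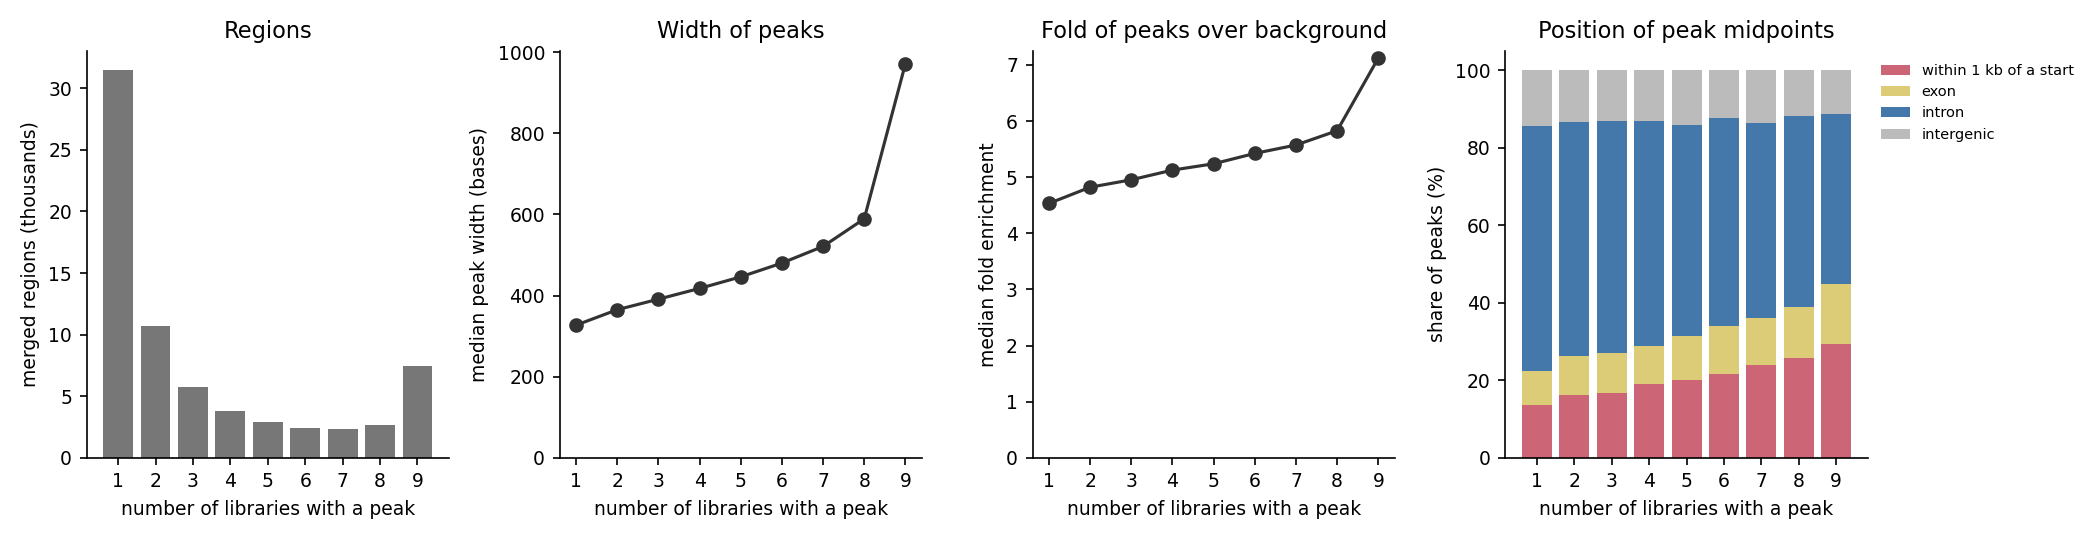
From left to right: number of merged regions, median peak width in bases, median fold enrichment and position of peak midpoints, each by the number of libraries (1 to 9) with a peak in the region. Width and fold rise from 327 bases and 4.53 at 1 library to 971 bases and 7.12 at 9, while the share of peaks near a transcription start rises from 13.7% to 29.3%.

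A −log10 q of 10 or more was reached by 274 single-library regions, of which 170 (62.0%) belonged to siEXOSC3 replicate 3 and 2 to 34 to each of the other 8 libraries. This library also stood apart in where its peaks ended. An end on a restriction site was found in 64.3% of its single-library regions, against 39.3 to 48.9% in the other 8 libraries. Its shared peaks had such an end in 64.6%, the highest of the 9 values (53.2 to 64.6%). Among its 170 strong regions, 72.4% had an end on a site, 23.5% lay within 1 kb of a start and 5 overlapped an RNase H peak. The 104 strong regions of the other libraries had 49.0%, 17.3% and 15. The 6 comparisons of position, GC content, fragment length and RNase H peaks below were therefore also run without siEXOSC3 replicate 3, and none changed its side of the threshold. The added comparisons and those by chromosome were not run without it.

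Most single-library regions lay inside genes and away from promoters. By their midpoints, 19928 (63.3%) fell in introns, 4528 (14.4%) between genes, 4307 (13.7%) within 1 kb of an annotated transcription start and 2709 (8.61%) in exons. In the genome as a whole, introns make up 34.6% of bases, intergenic sequence 59.1%, windows of 1 kb around starts 4.00% and other exons 2.33%. A protein-coding gene contained 25678 midpoints (81.6%), and a further 520 (1.65%) lay only in long noncoding, antisense or processed transcripts.

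Single-library peaks were less often at transcription starts than the shared peaks of the same library. The share within 1 kb of a start was 13.1, 11.6 and 10.7% in the siScramble libraries, 14.6, 8.47 and 10.5% in the siDDX1 libraries and 20.8, 14.8 and 17.3% in the siEXOSC3 libraries, replicates 1 to 3 in turn. Shared peaks had between 22.8 and 28.8%. The ranges did not overlap, and the share was lower in 9 of 9 libraries, by 11.5 ± 2.82 percentage points on average (SD, n = 9). An exact permutation test over the 512 sign assignments gave p = 0.00391, the smallest it can give, or 0.00586 after Benjamini-Hochberg adjustment over the 6 comparisons. Against regions called in exactly 2 libraries the same difference was -2.85 percentage points, and among weak peaks of both kinds, with a −log10 q below 5, it was -7.25.

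Introns showed the opposite. The share of single-library peaks in introns was 62.8, 66.2 and 67.2% in siScramble, 63.8, 74.2 and 72.3% in siDDX1, and 52.1, 54.2 and 58.5% in siEXOSC3, against 44.7 to 52.2% of shared peaks. It was higher in 9 of 9 libraries, by 14.2 ± 6.07 percentage points (SD, n = 9, exact permutation p = 0.00391, adjusted 0.00586). The difference fell to 3.25 points against regions called in 2 libraries and to 8.80 points among weak peaks. Since the 4 classes of position add up to all peaks, these differences are not independent of each other. Exons held 8.26 ± 1.20% of single-library and 13.4 ± 0.453% of shared peaks (mean ± SD over 9 libraries), lower in 9 of 9.

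Intergenic sequence did not separate both kinds of peak. Its share was higher in 7 of 9 libraries and lower in siDDX1 replicates 2 and 3, with a mean difference of 2.48 ± 3.98 percentage points (SD, n = 9, exact permutation p = 0.0781, adjusted 0.0938). The largest value, 24.2% against 12.9%, was that of siEXOSC3 replicate 2. Without siDDX1 replicate 2 the difference was 2.83 points and without siDDX1 replicate 3 it was 2.72 points, each with an exact permutation p of 0.0469 over 8 libraries.

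Base composition differed in the same libraries. Mean GC content was 46.3, 45.5 and 45.9% for single-library peaks of siScramble, 46.7, 45.3 and 46.2% for siDDX1 and 49.5, 47.7 and 48.9% for siEXOSC3. Shared peaks lay between 48.8 and 50.4% and the genome at 41.8%. The difference was -2.53 ± 1.08 percentage points (SD, n = 9, lower in 9 of 9, exact permutation p = 0.00391, adjusted 0.00586). The ratio of observed to expected CpG averaged 0.233 ± 0.0197 in single-library and 0.291 ± 0.00949 in shared peaks, lower in 9 of 9 (exact permutation p = 0.00391, n = 9, adjusted over 9 added comparisons 0.00502).

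Single-library peaks also lay on shorter restriction fragments. The median fragment around a peak was 1525 to 2004 bases by library for single-library peaks and 2102 to 2386 bases for shared peaks, a difference of -429 ± 143 bases (SD, n = 9, lower in 9 of 9, exact permutation p = 0.00391, adjusted 0.00586). The fragment that covers a base of the genome has a median length of 961 bases, so both kinds lay on fragments longer than that. Against regions called in 2 libraries the difference was -65.2 bases. Shared peaks were also wider, and fragments were not compared at equal width.

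**Figure D3:**
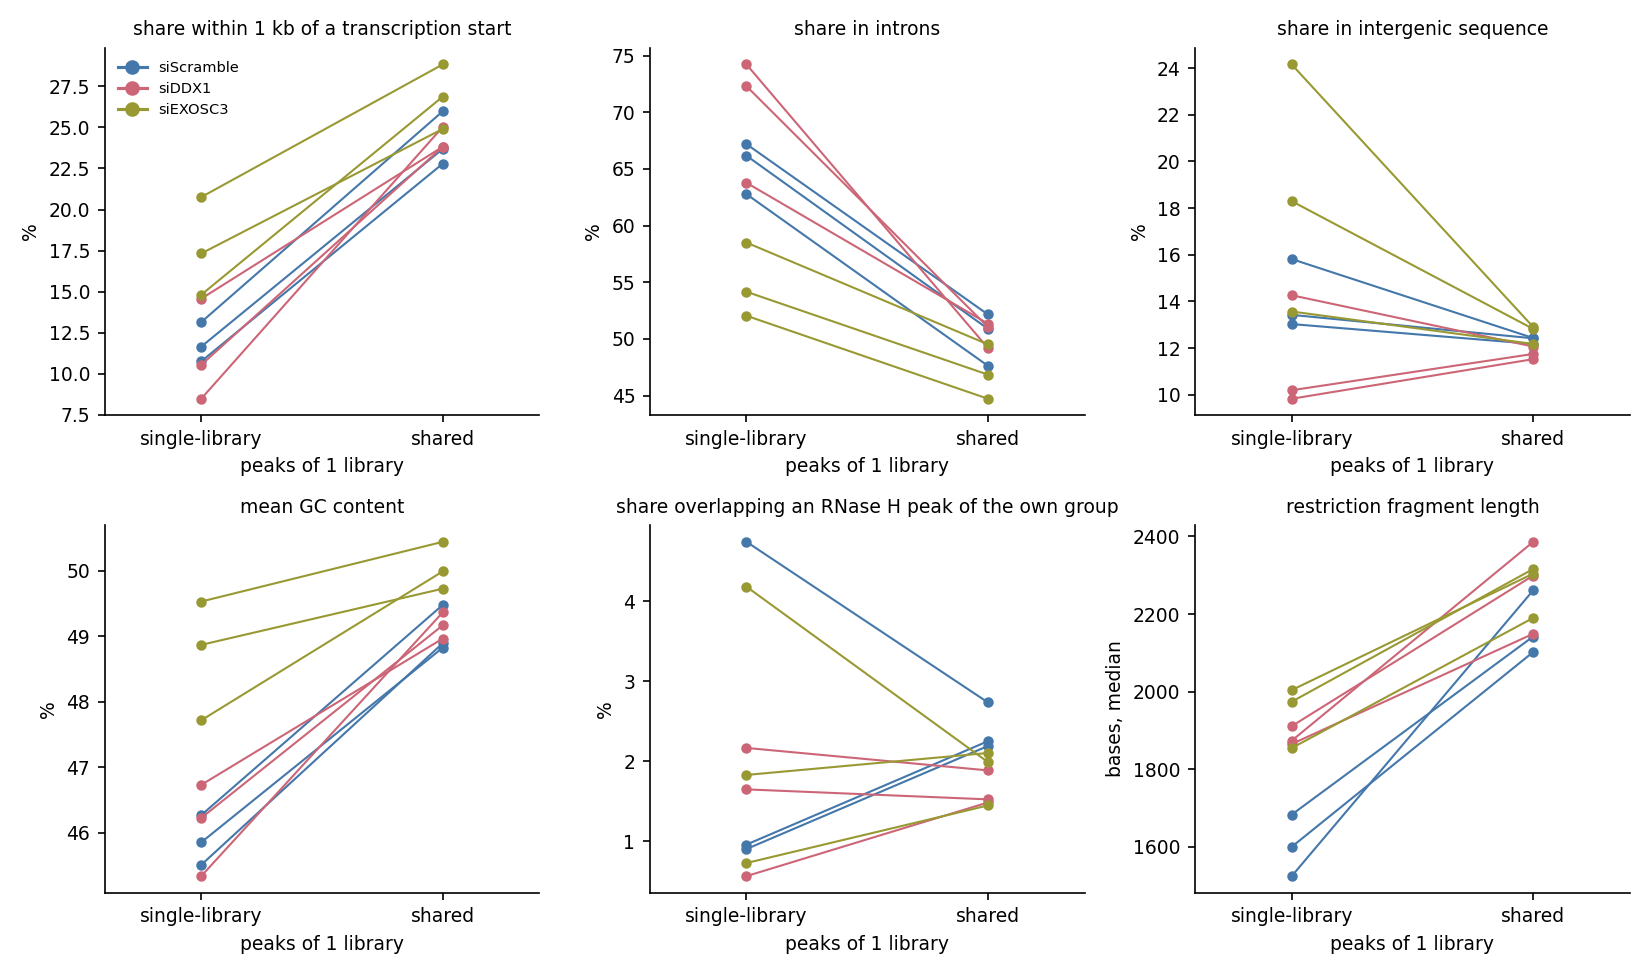
Each line joins the single-library and the shared peaks of 1 library, coloured by the group in its title, for the 6 compared measures (percent, or median bases for the restriction fragment); axes do not start at 0. The lines for transcription starts, introns, GC content and fragment length run the same way in 9 of 9 libraries, whereas those for intergenic sequence and RNase H peaks run both ways.

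RNase H digestion is the negative control, since a signal that survives it need not be a hybrid. Of all single-library regions, 777 (2.47%) overlapped a peak of at least 1 RNase H list, 486 overlapped the list of their own group and 185 overlapped all 3. The share that overlapped the own group's list was 4.74, 0.959 and 0.903% in siScramble, 2.17, 1.65 and 0.564% in siDDX1 and 1.83, 4.18 and 0.728% in siEXOSC3. It was higher than in shared peaks in 4 libraries and lower in 5, with a mean difference of 0.0124 ± 1.31 percentage points (SD, n = 9, exact permutation p = 0.973, adjusted 0.973). The sign of this mean changed in several of the alternative settings. A wider peak has more bases in which to overlap an RNase H peak. Counted by the summit alone, the mean difference was 0.294 percentage points (exact permutation p = 0.496).

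The regions that overlapped an RNase H peak differed from the rest in position. Of these 777 regions, 49.8% were intergenic and 5.15% near a start, compared with 13.5% and 13.9% of the other 30695. Both ends lay on restriction sites in 42 of them (5.41%) and in 0.492% of the others. Shared peaks, which were wider, had both ends on sites in 5.82 to 10.7% by library. Mean GC content was 44.4% in the 777 regions against 47.0% in the other 30695. The central 31 bases occurred more than once in the genome in 10.6% against 5.86%. The RNase H lists themselves, of 3811 to 8034 peaks, were 52.5 to 55.9% intergenic. The largest share was that of siEXOSC3 replicate 2, with 206 of 2749 regions (7.49%), and siDDX1 replicate 1 held the largest number, 221 of 5629 (3.93%).

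Repeated sequence was somewhat more common at the summits of single-library peaks. A stretch of 31 bases that occurs more than once in the genome sat at the summit of 6.31 ± 0.948% of them and of 4.73 ± 0.166% of shared peaks (mean ± SD over 9 libraries, higher in 9 of 9, exact permutation p = 0.00391, adjusted 0.00502). The difference was smallest in siEXOSC3 replicate 3 (4.54 against 4.45%) and largest in siEXOSC3 replicate 2 (7.68 against 4.77%). Within 300 bases around the summit, at least 10 units of CA or TG were found in 2.398 ± 0.328% of single-library and 1.69 ± 0.173% of shared peaks, again higher in 9 of 9 (exact permutation p = 0.00391, n = 9, adjusted 0.00502). At least 10 units of GA or TC were found in 0.860 ± 0.214 and 0.458 ± 0.0428%, also higher in 9 of 9 with the same p. Of all tiles of 300 bases in the genome, 2.92% hold the first repeat and 1.31% the second, so both kinds of peak had fewer than the genome. One window is shown for each of the 2 repeats, taken from the single-library region of highest fold that holds it near its summit and outside exons, with the match in capitals.
CA or TG, Wwc2 intron, chr8:49066189-49066289: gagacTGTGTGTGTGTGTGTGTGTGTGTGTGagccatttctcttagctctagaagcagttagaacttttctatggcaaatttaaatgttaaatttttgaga
GA or TC, intergenic, chr7:54090287-54090387: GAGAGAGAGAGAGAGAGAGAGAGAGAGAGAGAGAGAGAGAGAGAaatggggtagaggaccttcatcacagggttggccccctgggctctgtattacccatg
Both regions belonged to siEXOSC3 replicate 3. Their folds were 8.78 in Wwc2, with 15 fragments at the summit, and 6.32 at the intergenic site, with 9.

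Runs of G went the other way. A pattern of 4 runs of 3 or more G, spaced by 1 to 7 bases, on either strand, is the usual search pattern for a G-quadruplex. It was present in 5.76 ± 1.26% of single-library and 7.26 ± 0.572% of shared peaks (mean ± SD over 9 libraries), lower in 9 of 9 (exact permutation p = 0.00391, adjusted 0.00502), and in 5.12% of genome tiles. A match to the pattern is a description of the letters only.

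Single-library regions often lay beside a peak of another library. The median gap to the nearest such peak was 893 bases, and by library it ranged from 645.5 bases in siScramble replicate 1 to 1123 bases in siEXOSC3 replicate 2. A gap of at most 100 bases was found for 2791 regions (8.87%) and one of at most 1000 bases for 16603 (52.8%). On the same restriction fragment, 15498 regions (49.2%) had a peak of at least 1 other library and 206 (0.655%) had peaks of all 8 others. Joining peaks up to 1000 bases apart left 14442 of the regions (45.9%) in a single library.

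At the other end, 3516 regions (11.2%) were more than 10000 bases from any peak of another library. These isolated regions were 22.4% intergenic and 11.6% near a start, and 9.41% of them overlapped an RNase H peak. The regions within 1000 bases of another library's peak were 13.2% intergenic and 14.9% near a start, and 1.49% overlapped an RNase H peak. Introns held 60.4% of the isolated and 62.0% of the near ones.

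The genes that held the intronic regions mostly carried promoter peaks too, though less often than for shared peaks. Of 19568 single-library regions in introns of protein-coding genes, 11237 (57.4%) lay in a gene with a peak within 1 kb of a start in 5 or more other libraries, and 3487 (17.8%) in a gene with no such peak in any other library. Genes with a start called in 5 or more of 9 libraries make up 26.7% of protein-coding genes and hold 22.7% of their intron bases. By library the first share was 63.5, 59.7 and 61.6% in siScramble, 56.7, 63.1 and 61.6% in siDDX1 and 47.7, 45.1 and 54.3% in siEXOSC3, against 70.5 to 79.2% for shared intronic peaks. It was lower in 9 of 9 libraries, by 16.8 ± 5.64 percentage points (SD, n = 9). Calls of other libraries enter both this share and the choice of single-library regions, so part of the difference is built in. Its p-value is therefore not given, although it counted among the 9 added comparisons. GC skew along the coding strand, the excess of G over C divided by their sum, averaged 0.0287 ± 0.00553 in single-library and 0.0263 ± 0.00144 in shared intronic peaks, and was higher in 6 of 9 libraries (exact permutation p = 0.238, adjusted 0.268).

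The share of peaks that were single-library rose with distance from a transcription start. It was 6.08% within 1 kb, 9.30% from 1 to 5 kb, 12.2% from 5 to 20 kb, 16.1% from 20 to 100 kb and 20.8% beyond 100 kb. The largest class, 11330 regions (36.0%), was 5 to 20 kb from a start, and 728 were farther than 100 kb.

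Longer genes held a larger share of single-library regions up to 500 kb. In protein-coding genes under 10 kb, 26.2% of overlapping regions were single-library, in genes of 10 to 50 kb 38.7%, of 50 to 200 kb 47.5% and of 200 to 500 kb 55.6%, while the 200 genes of 500 kb or more had 51.4%. The class of 500 kb or more includes Gm20388, an annotated readthrough gene of 4434882 bases with 259 single-library regions among 680 (38.1%). The share of this class without Gm20388 was not computed, so the fall beyond 500 kb may rest on this gene model. Per Mb of gene the order was another: 44.2 single-library regions in genes under 10 kb, 48.5 in genes of 10 to 50 kb, 29.7, 14.3 and 5.42 in the longer classes.

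**Figure D4:**
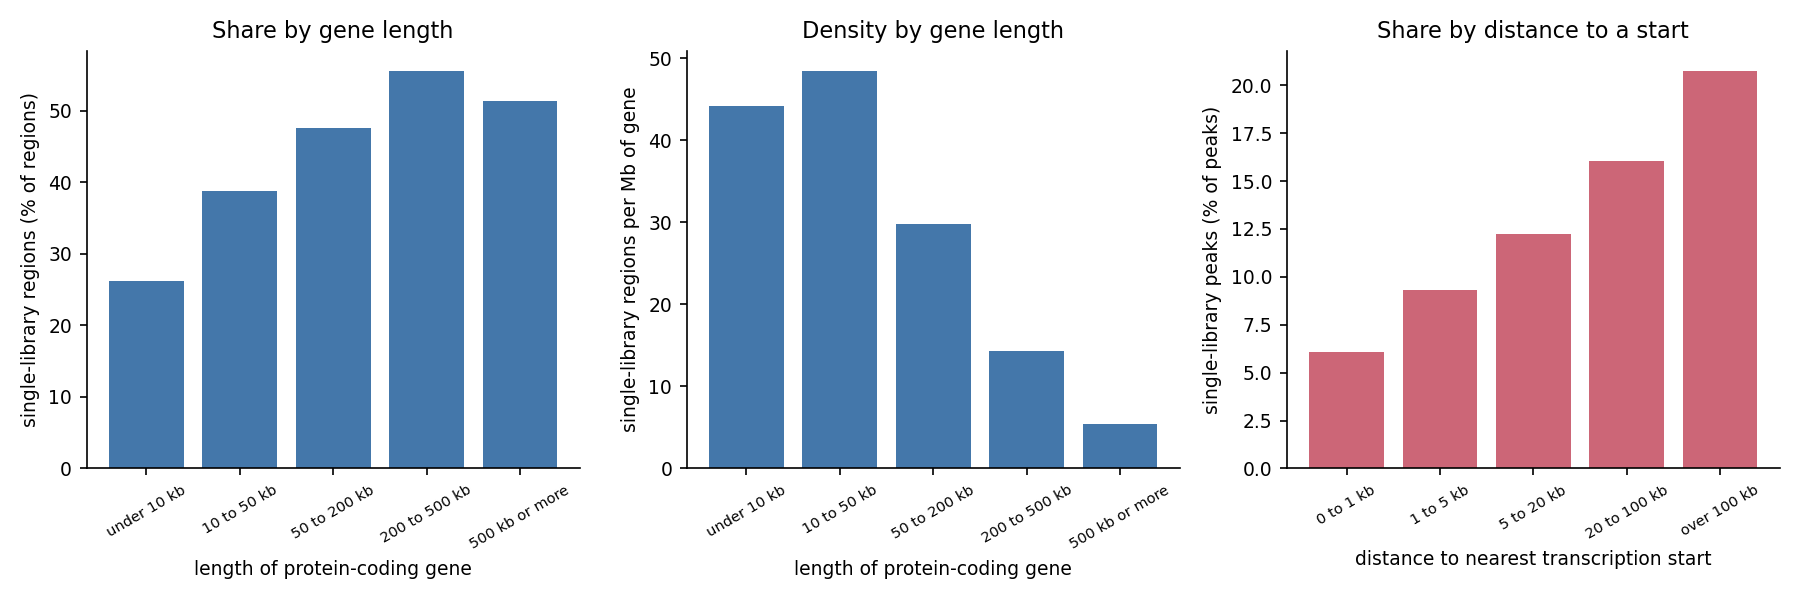
Left and middle: single-library regions in protein-coding genes by gene length, as a percentage of all merged regions there and per Mb of gene. Right: single-library peaks as a percentage of all peaks by distance to the nearest transcription start, rising from 6.08% to 20.8%.

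In all, 7639 of 22380 protein-coding genes (34.1%) overlapped at least 1 single-library region. The largest number was that of Gm20388, with 259 of its 680 regions (38.1%), but this annotated readthrough gene spans 4434882 bases on chromosome 8 and covers many other genes. Odz4, a teneurin gene for a cell adhesion protein of neurons, followed with 73 of 121 regions (60.3%). By library, Odz4 had 4, 17 and 33 in siScramble, 3, 2 and 2 in siDDX1 and 1, 6 and 5 in siEXOSC3, so 2 siScramble libraries supplied most of them. Alk, a receptor tyrosine kinase gene known from neuroblastoma, had 52 of 97 (53.6%), with 0, 9 and 18 in siScramble, 9, 3 and 6 in siDDX1 and 0, 0 and 7 in siEXOSC3. Snd1, which encodes an RNA-binding nuclease, had 45 of 99 (45.5%), of which siScramble replicate 3 held 20.

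The other 6 genes with most single-library regions were Agap1 with 55 of 156 (35.3%), Magi1 with 49 of 90 (54.4%), Dst with 46 of 97 (47.4%), Fgfr2 with 46 of 79 (58.2%), Fndc3b with 42 of 72 (58.3%) and Klhl29 with 39 of 70 (55.7%). Agap1 regulates small GTPases, Magi1 is a scaffold of cell junctions, Dst links cytoskeletal filaments and Fgfr2 is a growth factor receptor. The annotated Fgfr2 gene spans 3009069 bases, so its 46 regions came to 1.53 per 100 kb. That was the lowest density of the 10 genes with most regions, and the others ran from 5.84 (Gm20388) to 14.2 (Fndc3b). Single-library regions of each of these 10 genes came from at least 6 libraries. In 9 of them siScramble replicate 3 supplied more than any other library, and it also held most single-library regions in all (20.8%). The exception was Gm20388, where siEXOSC3 replicate 3 supplied 65. In Dst the lead was narrow, 12 against 11 of siEXOSC3 replicate 3.

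**Figure D5:**
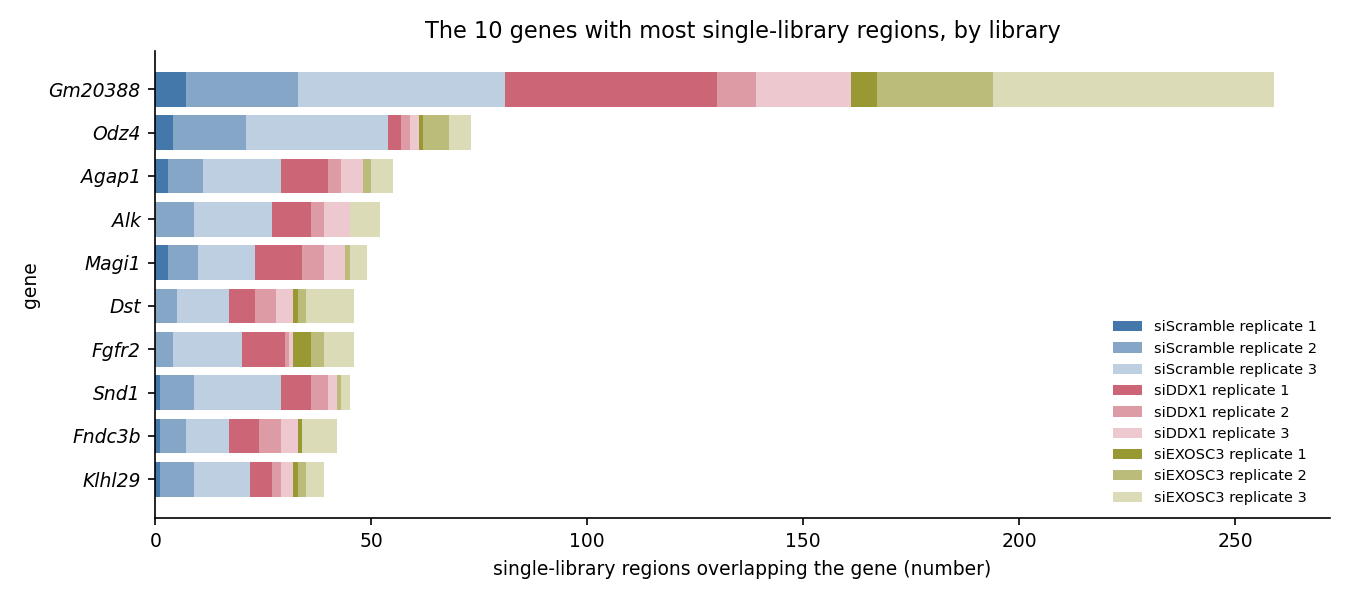
Number of single-library regions that overlap each of the 10 genes with most of them, split by library (colour for the group in the title, shade for the replicate). Gm20388 reaches 259 regions, Odz4 73, and siScramble replicate 3 supplies 33 of those in Odz4.

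Of 1831 genes with 10 or more merged regions, 10 had no single-library region and 2 had nothing else. These 2 were Ccdc12, a spliceosome component gene (12 of 12, from 6 libraries), and Stard9, a kinesin gene (11 of 11, from 5 libraries). AI314180 and the kinase gene Tnik had 14 of 15 each (93.3%), from 5 and 7 libraries, and Suclg2, a subunit of succinyl-CoA ligase, had 11 of 12 (91.7%), from 6. Among the genes with none, those with most regions were Ampd3 with 0 of 13, Plekhm2, Scaf11 and Sf3a1 with 0 of 12 each, and Parp1 with 0 of 11. Sf3a1 encodes a splicing factor and Parp1 a DNA repair enzyme. These 5 genes span 22192 to 49146 bases, whereas the 5 with the highest share span 55088 to 412645 bases.

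Gene groups are set here beside the 45.3% of all regions. Cytosolic ribosomal protein genes, which are short and highly transcribed, had 9 single-library regions among 115 (7.83%), and 84 of the 115 were called in 9 of 9 libraries. Replication-dependent histone genes had 2 of 29 (6.90%) and Hox genes 0 of 12. Subunits of the RNA exosome had 11 of 37 (29.7%), in 5 of 11 genes. Enzymes that resolve R-loops had 46 of 94 (48.9%), in 16 of 19 genes.

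Genes of neuronal membranes lay on both sides. Potassium, sodium and calcium channels had 165 of 304 regions (54.3%), in 38 of 140 genes, and glutamate and GABA receptors 20 of 53 (37.7%), in 6 of 49 genes. The clustered protocadherins had 23 of 30 (76.7%), all in 2 of 24 listed genes. Olfactory and vomeronasal receptors, 1407 genes, had 1 region in all, and it was single-library. Genes of 500 kb or more had 940 of 1830 (51.4%), and among these genes Gm20388 had 259 of 680 (38.1%). No test was made between these lists, which differ in gene length.

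Genes followed in the study had few such regions, apart from Celf4. Celf4, an RNA-binding protein gene, had 25 of 54 regions (46.3%), with 2, 5 and 6 in siScramble, 5, 1 and 1 in siDDX1 and 1, 0 and 4 in siEXOSC3. Ints6, an Integrator subunit gene, had 2 of 3, Bambi 1 of 3, Ddx1 1 of 5 and Exosc3 0 of 1. Together they had 29 of 66 (43.9%).

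Chromosomes contributed unequally. The share of a library's single-library peaks on each of 20 chromosomes was set against that of its shared peaks. After adjustment over the 20 exact permutation tests (n = 9), the share was higher for 6 chromosomes (3, 9, 12, 14, 16 and 18) and lower for 4 (4, 8, 11 and 15). The largest increase was on chromosome 12, 4.36 against 3.14% (higher in 9 of 9, adjusted exact permutation p = 0.0130), and the largest decreases were on chromosome 11, 9.21 against 11.1% (lower in 8 of 9, adjusted 0.0174), and chromosome 15, 4.92 against 6.31% (lower in 9 of 9, adjusted 0.0130). Leaving out chromosomes 8 and 15 moved none of the 6 comparisons above across the threshold. Chromosome X held 436 regions, or 2.62 per Mb, the lowest density, and chromosome 11 held 2778, or 22.8 per Mb, the highest.

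Whether the distance between single-library and shared peaks itself differed between groups was tested for the 6 measures with F over the 280 arrangements. The siScramble libraries had an intron difference of 15.1 ± 0.123 percentage points, the siDDX1 libraries one of 19.6 ± 6.46 and the siEXOSC3 libraries one of 7.87 ± 0.959 (mean ± SD of 3). The exact permutation test gave p = 0.0143, or 0.0857 when adjusted over the 6 tests. The siEXOSC3 values, 7.31 to 8.98, did not overlap those of either other group. GC content gave p = 0.0643 and fragment length p = 0.0750, intergenic share 0.0929, transcription starts 0.275 and RNase H peaks 0.868 (exact permutation). None passed after adjustment. Without siEXOSC3 replicate 3 the unadjusted value for intergenic share was 0.0107 (exact permutation, 8 libraries).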

How the data were processed

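Peak lists of 9 DRIP-seq libraries and 3 RNase H-digested libraries of N2a cells were analysed; the 1 input sample was not analysed here. Per the study's methods, the authors aligned reads to mm9 with Bowtie2 2.4.4, sorted them with SAMtools and called peaks in each library against the input with MACS2 2.2.6. DESeq2 and HOMER 4.11, which the submitters' processing notes also name, bear on no value used here. As deposited by the authors, each peak has a display score, a fold enrichment (a linear ratio) and its p-value and q-value on the −log10 scale. The score was not used. Fold and −log10 p-value, as deposited, fix the stacked fragments at the summit and the local background for a Poisson model with 1 added to both, solved for −log10 p below 100 within 0.001. Read totals are unknown, and only a stand-in for depth was taken, from the local background.

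Merging and tests ran under Python 3.11.15 (pandas 2.3.3, numba 0.67.0, scipy 1.17.1, numpy 2.4.6) and figures were drawn with matplotlib 3.10.9. Positions were taken from midpoints and GENCODE vM1 on NCBIM37 (mm9), in the order start (1 kb), exon, intron, intergenic. A peak end was on a site when it lay at the enzyme's cut. Libraries, not peaks, were the replicates (n = 9). Differences within libraries were tested by exact two-sided permutation of signs, and groups by exact permutation of F. Merging, the sign test and the F test were checked on simulated data. Named regions were the 2 with the highest fold in each library outside chromosome 18, unplaced sequence and the mitochondrion. Named genes were the 10 with most single-library regions, the 5 with the highest and 5 with the lowest share among genes with 10 or more regions (ties broken by more regions, then by name), and the study's genes. Members, lists and tests were chosen with earlier results of these data known, and 9 added comparisons after seeing values. Alternatives were other joining, q-value, peak number and overlap rules, RNase H peaks or chromosomes 8 and 15 left out, and each library left out. A region without a peak in a library has no call there, which does not show that signal was absent. Some named items and sequences are not reported here.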

Additional observations from a re-analysis of the deposited data

Results flagged for a closer look

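The excess of single-library over shared peaks in introns differed between the 3 groups by an exact permutation test of F (p = 0.0143). By title it was 15.1 ± 0.123 percentage points in siScramble and 19.6 ± 6.46 in siDDX1 (SD, n = 3), with a lowest value of 12.4, and 7.32, 7.31 and 8.98 in siEXOSC3 replicates 1 to 3. The value was 0.0857 after adjustment over the 6 measures. Leaving out siScramble replicate 1 gave p = 0.0607, siScramble replicate 2 0.0714, siEXOSC3 replicate 1 0.0821 and siEXOSC3 replicate 2 0.0857 (exact permutation, 8 libraries). If the peak names rather than the titles are right, the group with the small excess is siScramble. What lies behind the difference was not tested.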

How the results depend on the processing

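The lower share near transcription starts, the higher share in introns, the lower GC content and the shorter restriction fragments of single-library peaks kept their direction and their side of the threshold in 18 of 18 alternatives each, although the differences shrank to -2.85, 3.25 and -0.447 percentage points and -65.2 bases against regions called in exactly 2 libraries. With each library left out in turn they ranged from -11.8 to -10.8, from 13.1 to 14.5, from -2.62 to -2.27 percentage points and from -451 to -395 bases. The intergenic difference passed the threshold with peaks up to 1000 bases apart joined (4.21 points, exact permutation p = 0.0469) and with a −log10 q of at least 5 (2.404 points, p = 0.0156), and ranged from 1.55 to 2.83 points with a library left out. The RNase H difference, which never passed, changed sign with peak numbers made equal (-0.186 points), with 50% of a peak covered (-0.169), without chromosomes 8 and 15 (-0.0280) and against regions called in exactly 2 libraries (-0.184), and ranged from -0.184 to 0.238 with a library left out.

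The number of regions depended on the rule. It was 14064 with peaks up to 1000 bases apart joined, 17950 with a −log10 q of at least 5, 19803 with peak numbers made equal and 48374 peaks when 50% of a peak had to be covered, where no share of merged regions can be defined and none was run. Their share of merged regions was 35.2, 43.0 and 43.0% in the first 3 of these, 45.7% without chromosomes 8 and 15, and 45.7 to 46.7% with a library left out, when the number ranged from 29999 to 31577.

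Same-numbered libraries of different groups did not deviate together: over regions called in 2 to 8 libraries the 9 correlations of their deviations ran from -0.0265 to 0.0590. With the replicate number as a block, the number and the share of single-library regions gave exact permutation p = 0.917 and 0.944 across groups, and with a library left out they ranged from 0.450 to 0.975 and from 0.443 to 0.986. For the differences between groups, alternatives chosen after seeing the data, the replicate block gave 0.0556 for introns and 0.0278 for intergenic share. GC content gave 0.0321 with a −log10 q of at least 5, 0.0286 with equal numbers of peaks and 0.0357 among weak peaks; fragment length gave 0.0357 and 0.00357 in the first 2 of these, and intergenic share 0.0429 in both. With a library left out, these p-values ranged from 0.00357 to 0.0857 for introns, 0.0393 to 0.104 for GC content, 0.0286 to 0.175 for fragment length, 0.0107 to 0.293 for intergenic share, 0.0643 to 0.411 for transcription starts and 0.282 to 0.986 for RNase H peaks. A median of 7 fragments lay at the summit of a single-library region, and read totals are unknown.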
